A study of Mus musculus with 27 samples.

Results

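The comparison concerned mouse KUSA4b10 cells exposed to parathyroid hormone (PTH) for 24 h and untreated KUSA4b10 cells of the same time point. Its 6 arrays, of 27 in the series, were taken by sample title: 3 arrays of PTH-treated cells and 3 of control cells, each at 24 h. KUSA4b10 is 1 line of marrow stromal cells that can mature into osteoblasts, so the arrays sample a single line and not separate animals. The treated cells received PTH(1-34), the active amino-terminal fragment of the hormone, at 10 nM, and the controls received no peptide. Other arrays of the series were used for comparison: PTH and control cells at 6 h, and cells given PTH-related protein, PTHrP(1-141), at 20 nM for 24 h, with 3 arrays in each group. The labels do not say that the 3 arrays of a group came from separate cultures. The p-values thus measure only how far arrays within a group vary, pooled over the 9 groups of the series, and that variation may be technical.

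PTH acts on cells of the osteoblast lineage through the receptor Pth1r, which raises cyclic AMP and activates protein kinase A. The hormone is known both for building bone when given in pulses and for driving bone resorption when it stays high. Resorption depends largely on osteoblast-lineage cells raising Tnfsf11 (RANKL), which drives osteoclast formation, relative to Tnfrsf11b (osteoprotegerin), the decoy receptor that captures it. Osteoblasts that mature secrete a collagen-rich matrix, mineralise it and in part become osteocytes buried within it.

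The deposited values were linear RMA intensities, and all levels and differences below are on their log2 scale. Of 18193 genes with a probe set, 15711 passed a filter on dim genes and were tested with limma. A gene is called where the adjusted p, after Benjamini-Hochberg correction over all 15711 genes, was under 0.05. Errors after a difference are standard errors of that fit, each difference resting on 3 arrays against 3. The median intensity of the 6 arrays lay between 83.2 and 88.7. Arrays correlated at 0.9966 to 0.9978 among the controls, 0.992 to 0.9961 among the PTH arrays and 0.9873 to 0.9895 between the groups. The log2 ratio of the 3' to the 5' probe sets of Actb is a sign of RNA integrity. It was 0.411 to 0.428 on the PTH arrays and 0.362 to 0.386 on the controls. This difference of 0.046 had an exact two-sided permutation p of 0.1, the smallest that 3 arrays against 3 can give. For Gapdh the same log2 ratio was -0.225 to -0.199 with PTH and -0.218 to -0.199 on the controls, so these ranges overlapped. The part of the Actb difference in the results was not tested.

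Of 11 markers of marrow stromal cells and osteoblasts on the array, 10 were at a log2 level of at least 7 in the controls. Thy1 was the exception, at 5.32. The summed level of these markers was 16.296 to 16.314 on the control arrays and 15.832 to 15.943 on the PTH arrays, and several of them are themselves among the results. A log2 level of at least 7 in the controls was also reached by 6 of 8 adipocyte markers and 4 of 8 neuron and glia markers on the array. This level alone thus does not set the lineages apart. Of the adipocyte markers, Lpl (lipoprotein lipase) averaged 13.34 on the controls and 13.47 with PTH and was not called. Adipoq, the adipocyte hormone adiponectin, averaged 11.28 on the controls and 10.42 with PTH, and Retn (resistin) 8.80 and 7.79. The call of Adipoq was lost without PTH replicates 2 or 3 or control replicates 1 or 2 (adjusted p up to 0.153). Of 7 adipocyte markers tested 4 fell and none rose, and the summed level of the list was 13.852 to 14.076 on the controls and 13.815 to 13.918 with PTH. Pparg and Cidec were the other members that fell. The call of Pparg was lost without the same arrays as that of Adipoq (adjusted p up to 0.212). Cidec was dim, at 5.05 on the controls and 4.41 with PTH. Of 13 macrophage, osteoclast and blood markers on the array, 4 were at a log2 level of at least 7 in the controls, while the leukocyte markers Ptprc and Itgam were at 4.08 and 4.00. The monocyte marker Cd14 rose, from 7.54 to 7.98, and the macrophage marker Cd68 fell, from 6.33 to 5.86, a call that was lost without PTH replicates 1 or 2 or control replicates 1 or 2 (adjusted p up to 0.263). The summed level of these 13 was 10.151 to 10.234 on the controls and 10.044 to 10.297 with PTH (exact two-sided permutation p = 1.0). Chondrocyte markers had a summed level of 10.348 to 10.393 on the controls and 10.085 to 10.268 with PTH, with 2 of 10 tested lower, and neuron and glia markers one of 9.803 to 9.907 and 9.491 to 9.794, with 1 of 7 lower. In both lists the arrays of the groups did not overlap, and the exact two-sided permutation p was 0.1, the smallest possible. In such bulk samples, fewer cells of a type and less RNA per cell cannot be told apart, and the part of adipocyte, blood, cartilage or neural markers in the results was not tested.

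After 24 h of PTH, 1830 of 15711 genes (11.6%) differed from the controls. Of these, 894 were higher (5.69% of all genes tested) and 936 were lower (5.96%). At an unadjusted p under 0.05 there were 3497. Most differences were small: the median size among called genes was 0.42, the smallest was 0.16, and the median difference of all genes tested was -0.0008. Differences of over 2-fold were found in 164 genes (1.04% of those tested), and here the balance was uneven, with 49 higher and 115 lower. Beyond 4-fold there were 4 higher genes and 18 lower ones. The 3 PTH arrays did not overlap the 3 controls for 1800 of the 1830 called genes, and for 4240 of all genes tested (27%). With 1 array left out, the count of higher genes was the less steady of the pair: it was 520 without PTH replicate 1, 586 without control replicate 3 and 601 without control replicate 2. The balance also depended on the scaling. Quantile normalisation gave 894 higher and 1204 lower genes, cyclic loess 977 and 1195, and subtraction of array medians 871 and 857.

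**Figure D1:**
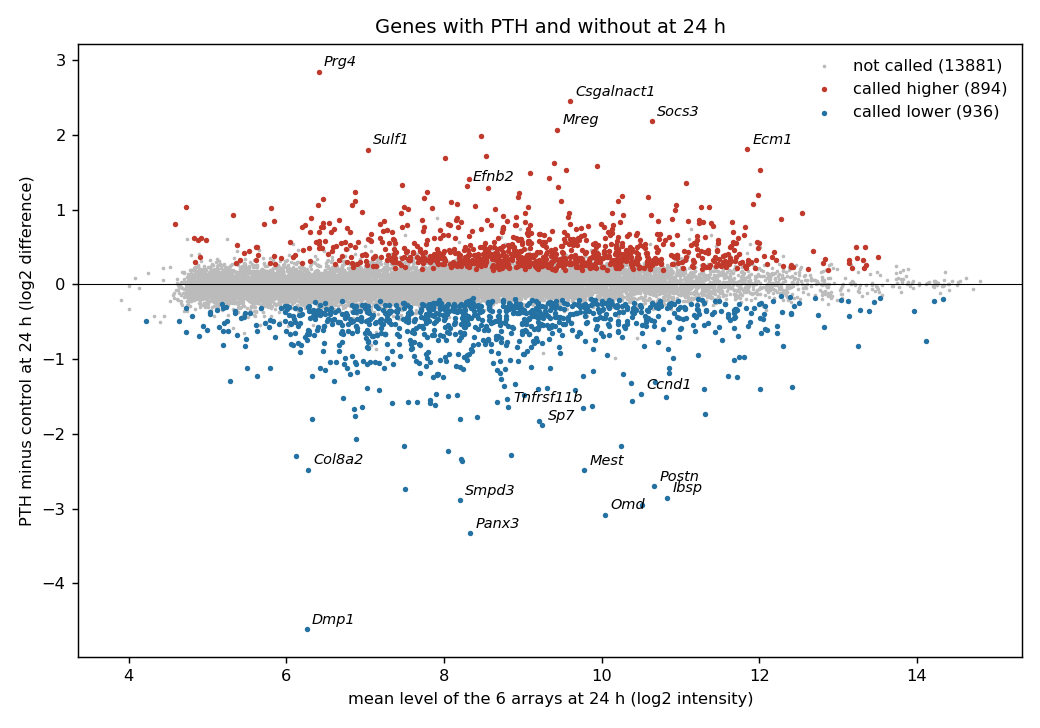
Difference between PTH and control at 24 h (log2, vertical axis) against the mean log2 level (horizontal axis), 1 point per gene tested, with the called genes coloured by direction and some named. The points spread further downwards than upwards: 18 called genes lie below a 4-fold decrease, with Dmp1 lowest, and 4 lie above a 4-fold increase, with Prg4 highest.

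Prg4, which encodes lubricin, the lubricating proteoglycan of joint surfaces and tendon, rose most. It read 4.90, 4.96 and 5.11 on the control arrays and 7.98, 7.48 and 8.04 with PTH. Every PTH array stood more than 2 log2 units above every control. The difference was 2.84 ± 0.18 (adjusted p = 2.17e-11). The controls lay near the level of the endothelial marker Cdh5 (5.15), so the size of the fold is poorly resolved. Csgalnact1, the enzyme that starts chondroitin sulphate chains on their core proteins, read 8.58, 8.36 and 8.20 on the controls and 10.80, 10.82 and 10.86 with PTH, a difference of 2.45 ± 0.12 (adjusted p = 1e-12). Its treated arrays agreed closely and lay far from the controls. Socs3, the feedback inhibitor of gp130 cytokine receptors, read 9.83, 9.60 and 9.21 on the controls and 11.86, 11.64 and 11.70 with PTH. The gain was 2.18 ± 0.21 (adjusted p = 4.61e-08), again without overlap.

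Mreg, melanoregulin, a protein of organelle transport, read 8.38, 8.46 and 8.36 on the controls and 10.52, 10.40 and 10.48 with PTH. The groups were tight and far apart, at 2.07 ± 0.14 (adjusted p = 5.87e-11). Ecm1, a secreted matrix protein, stood at 11.07, 10.90 and 10.87 without PTH and at 12.77, 12.71 and 12.79 with it. This gene had the smallest error of the group, at 1.81 ± 0.08 (adjusted p = 1.22e-13). The other genes with the largest increases were Il13ra1 (1.99), a subunit of the interleukin-13 receptor, the heparan sulphate endosulphatase Sulf1 (1.80), the nuclear regulators of NF-kappaB Nfkbiz (1.71) and Bcl3 (1.69), and Tgfbi (1.62), a secreted adhesion protein induced by TGF-beta. They also held the secreted Wnt inhibitor Wif1 (1.59), the proteoglycan versican, Vcan (1.53), the matricellular protein Ccn5 (1.53), the transcription factor Cebpd (1.49) and the mitochondrial protein Chchd10 (1.42).

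Dmp1, an acidic matrix protein of osteocytes and late osteoblasts, fell most. It read 9.54, 7.99 and 8.15 on the controls and 3.99, 4.13 and 3.73 with PTH. Control replicate 1 was higher than the other controls, and all PTH arrays lay near the bottom of the array's range, where the size of a fold is poorly resolved. The difference was -4.61 ± 0.34, a 24.4-fold decrease on these intensities (adjusted p = 4.13e-10). Panx3, a channel protein of maturing osteoblasts, read 10.09, 9.76 and 10.14 on the controls and 7.07, 6.21 and 6.72 with PTH, a difference of -3.33 ± 0.16 (adjusted p = 7.05e-13). Omd, osteomodulin, a small keratan sulphate proteoglycan of bone, read 11.37, 11.61 and 11.76 on the controls and 8.78, 8.21 and 8.5 with PTH. Its difference of -3.08 ± 0.16 (adjusted p = 2.4e-12) also came without overlap.

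Ibsp, bone sialoprotein, which nucleates mineral, read 12.51, 12.06 and 12.21 on the controls and 9.91, 8.95 and 9.36 with PTH, and fell by 2.85 on the log2 scale (SE 0.17, adjusted p = 9.94e-12). Postn, periostin, a matricellular protein of periosteum, read 11.78, 12.15 and 12.15 on the controls and 9.47, 9.03 and 9.46 with PTH, and fell by 2.70 (SE 0.19, adjusted p = 1.93e-10). In both genes all PTH arrays stood more than 2 log2 units below all controls. Smpd3, a neutral sphingomyelinase needed for mineralisation, read 9.74, 9.47 and 9.72 on the controls and 6.63, 6.63 and 7.01 with PTH, with a difference of -2.89 ± 0.18. The other genes with the largest decreases were Car3 (-2.95), a carbonic anhydrase, Dock10 (-2.74), the imprinted gene Mest (-2.48), the collagen chain Col8a2 (-2.48), Mamdc2 (-2.36), the citrate transporter Slc13a5 (-2.33), the carbonic anhydrase-related gene Car8 (-2.30), the small heat shock protein Cryab (-2.29) and the receptor partner Ramp1 (-2.23).

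**Figure D2:**
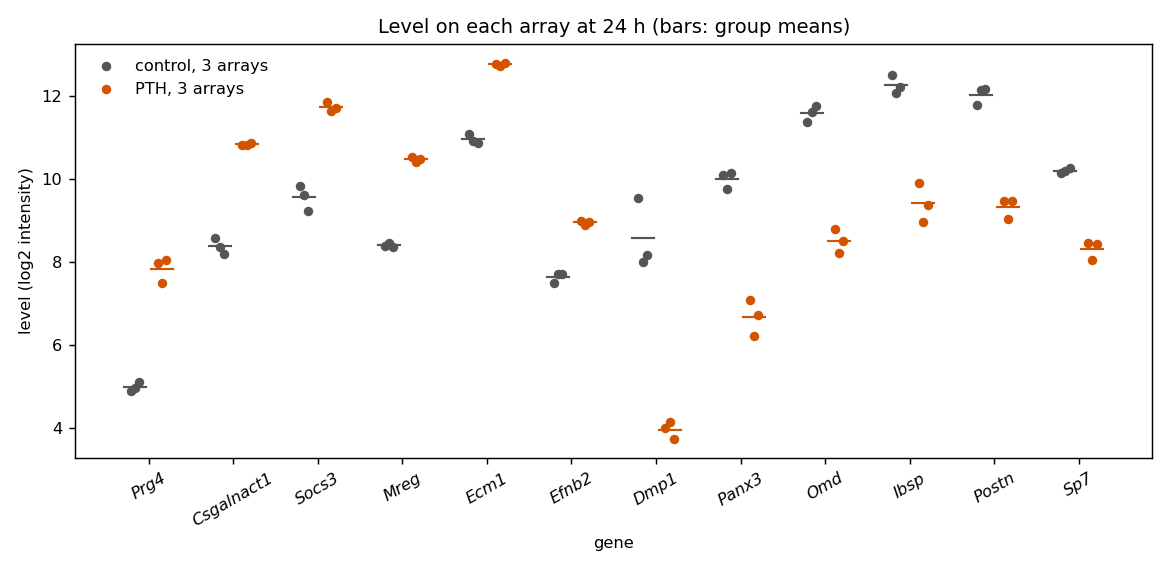
Log2 level (vertical axis) on each of the 3 control and 3 PTH arrays at 24 h for 12 genes, 1 point per array, with the group mean as a line. For each gene the PTH and control points do not overlap, from Prg4, which gains 2.84, to Dmp1, at -4.61.

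Promoter sequences from RefSeq (mouse build GRCm38.p6) were available for 725 of the higher and 725 of the lower genes. The 250 bases before each start were searched on both strands for 7 short motifs. The full cyclic AMP response element, TGACGTCA, was in 1.99% of the promoters of higher genes, 1.47% of those of lower genes and 2.28% of all 15824 promoters of genes tested. Its shorter core TGACG, which the full element contains, was in 24.0%, 19.1% and 23.9% of them in that order. The STAT motif TTCNNNGAA was in 6.81%, 4.50% and 6.00%, and the E-box CACGTG in 9.32%, 6.07% and 7.67%. For AP-1 (TGANTCA) the shares were 4.82%, 4.82% and 5.09%, for C/EBP (TTGCNNAA) 8.38%, 8.59% and 7.91%, and for RUNX (TGTGGT) 9.95%, 10.3% and 11.4%. These shares are descriptions of letters in a window, and none of the 7 was tested.

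The 250 bases before the start are shown for genes of opposite response, with the motif found in each in capitals. Ecm1 (chr3:95739570-95739819, minus strand) carries an AP-1 motif that starts 64 bases before the start. Dmp1 (chr5:104202367-104202616, plus strand, the downstream of its annotated starts) carries a RUNX motif, written as its reverse complement, at 164 bases before it. Socs3 (chr11:117969367-117969616, minus strand), chosen after its values were seen because it is a textbook target of STAT factors, carries a STAT motif at 154 bases before it. All are printed 5' to 3' on the strand of the gene.
Ecm1 promoter: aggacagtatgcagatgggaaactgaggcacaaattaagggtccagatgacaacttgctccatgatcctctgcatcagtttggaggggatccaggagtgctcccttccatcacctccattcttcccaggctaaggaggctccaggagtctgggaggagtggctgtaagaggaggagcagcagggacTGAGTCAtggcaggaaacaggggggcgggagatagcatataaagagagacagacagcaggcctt
Dmp1 promoter: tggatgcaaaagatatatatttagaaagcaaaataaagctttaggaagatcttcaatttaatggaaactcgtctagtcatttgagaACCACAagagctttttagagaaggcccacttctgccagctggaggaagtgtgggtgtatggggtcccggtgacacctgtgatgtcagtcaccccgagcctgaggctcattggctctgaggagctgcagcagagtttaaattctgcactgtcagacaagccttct
Socs3 promoter: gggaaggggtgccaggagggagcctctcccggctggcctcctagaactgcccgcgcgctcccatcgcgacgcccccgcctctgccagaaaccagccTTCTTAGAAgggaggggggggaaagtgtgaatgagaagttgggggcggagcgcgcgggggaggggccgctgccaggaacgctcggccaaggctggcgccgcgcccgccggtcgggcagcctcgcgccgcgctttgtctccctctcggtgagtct

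The genes were next described in 38 lists by their role. Each list count below is to be read against the shares of all genes tested, 5.69% higher and 5.96% lower. Counts near those shares are no result about a list. Examples are the higher counts of ephrins (1 of 17), adhesion genes (2 of 30) and prostaglandin genes (1 of 13). The lower counts of the respiratory chain (5 of 54) and S phase genes (3 of 35) are others. The lists overlap, and their counts are descriptions with no test of the list itself. Lists in which the share of lower genes was well above that of all genes included those of mitosis, small leucine-rich proteoglycans, bone matrix proteins, mineralisation, collagen chains, matricellular proteins and the actin cytoskeleton. Ribosomal proteins, at the other end, had 0 of 34 members called by limma, and their differences lay between -0.13 and 0.14.

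**Figure D3:**
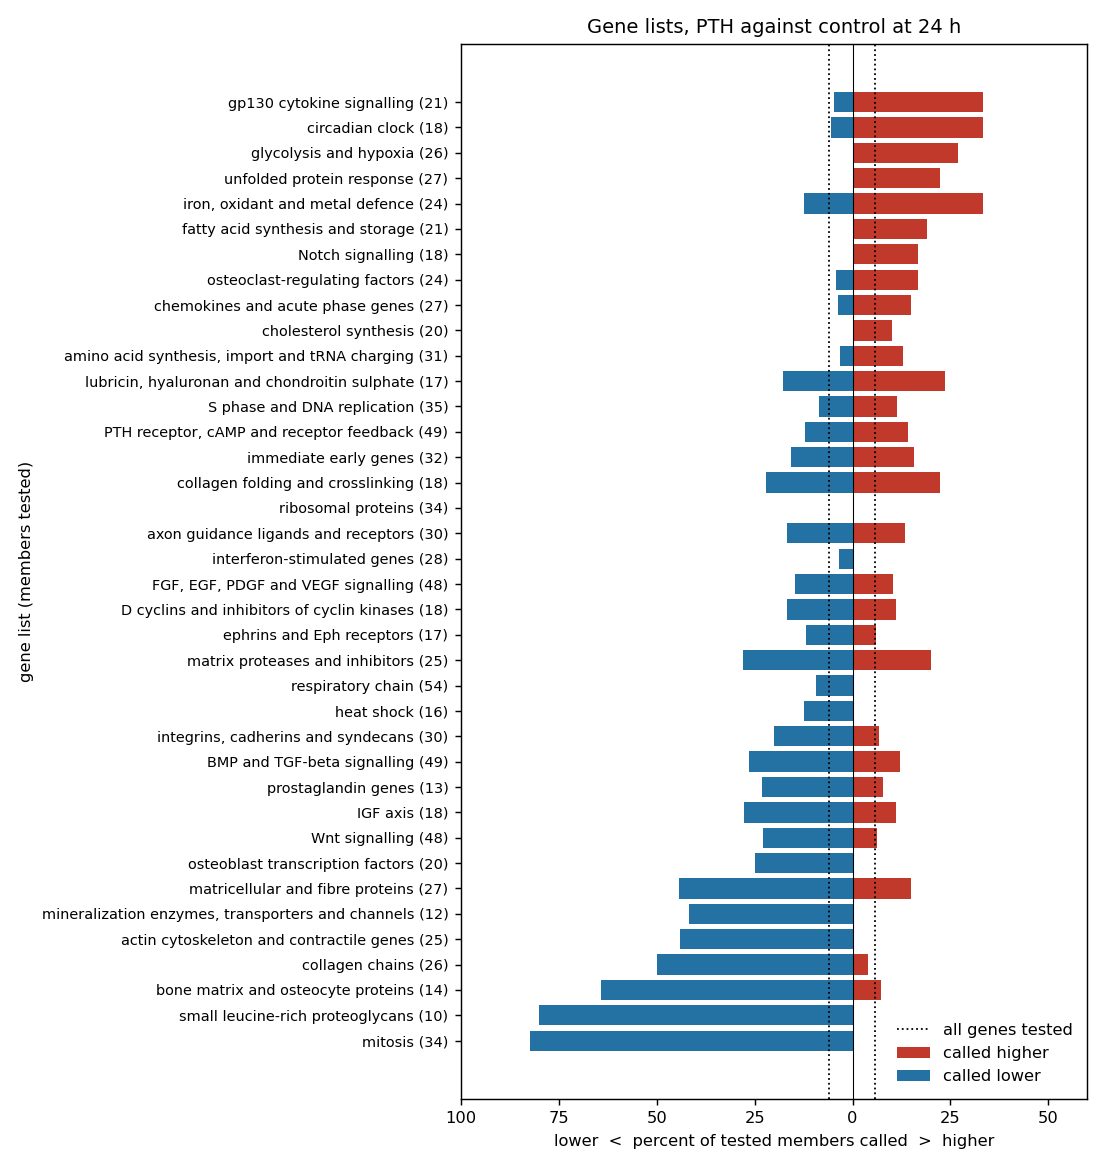
Percent of the tested members of each gene list that were called higher (to the right) or lower (to the left) with PTH at 24 h, with the number of members tested in parentheses and dotted lines at the shares of all genes tested, 5.69% and 5.96%. Mitosis genes reach furthest to the left, with 28 of 34 lower, and no list has a share of higher genes that large.

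Of 14 bone matrix and osteocyte genes tested, 9 fell and 1 rose, with a list median of -0.38. Beside Dmp1, Omd and Ibsp, the osteoblast membrane protein Ifitm5 fell by 1.58 (SE 0.16), from 8.73, 8.39 and 8.72 to 7.12, 7.12 and 6.86, so that no PTH array reached a control. Sparc, osteonectin, a calcium- and collagen-binding protein, fell by 0.36 (SE 0.06), and Mgp, an inhibitor of mineralisation, by 0.40 (SE 0.09). The one gene that rose was Tnn, tenascin-W (0.52 ± 0.09). Sost, the osteocyte inhibitor of Wnt signalling, was not called, at 0.33, and neither was the mineralisation inhibitor Mepe, at -0.02. Phex, an endopeptidase that acts on phosphate balance, fell by 1.09, but its adjusted p rose from 0.0132 to 0.070 without PTH replicate 2 or control replicate 1 and to 0.054 without PTH replicate 3.

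Of 12 enzymes, transporters and channels of mineralisation, 5 fell and none rose. Alpl, the alkaline phosphatase that frees phosphate for mineral, read 12.12, 12.28 and 12.29 on the controls and 11.34, 11.20 and 11.26 with PTH. Its groups were separate, and the difference was -0.97 ± 0.08 (adjusted p = 9.02e-09). Beside Smpd3 and Panx3, the annexins Anxa5 and Anxa6, calcium-binding proteins of matrix vesicles, fell by 0.40 (SE 0.06) and 0.46 (SE 0.08). The phosphate transporters Slc20a1 (0.15) and Slc20a2 (0.08) and the pyrophosphate transporter Ank (-0.17) were not called.

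Among 20 osteoblast transcription factors tested, 5 fell and none rose. Sp7, osterix, which osteoblast formation requires, read 10.13, 10.18 and 10.26 on the controls and 8.44, 8.03 and 8.44 with PTH. Its difference of -1.89 ± 0.11 (adjusted p = 9.94e-12) came with no overlap. Mef2c, which acts on Sost in osteocytes, fell by 2.17 (SE 0.28), and Id3, a BMP-responsive inhibitor of basic helix-loop-helix factors, by 1.83 (SE 0.10). The homeobox genes Dlx5 and Dlx3 fell by 0.89 (SE 0.10) and 0.58 (SE 0.12). Atf4 (0.10), Twist1 (-0.01) and Sox9 (0.20) were not called. Runx2, osteocalcin (Bglap) and osteopontin (Spp1) were not analysed here.

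Collagen chains were mostly lower or unmoved. Of 26 chains tested, 13 fell and 1 rose, with a median of -0.20. Col1a1, the main collagen chain of bone, read 14.48, 14.52 and 14.49 on the controls and 13.73, 13.69 and 13.81 with PTH. The groups were narrow and apart by 0.75 (difference -0.75 ± 0.07, adjusted p = 2.97e-08), while Col1a2, its partner in the same fibril, was at -0.19 (SE 0.06), a call lost when any 1 of PTH replicates 1 and 2 and the 3 controls was left out (adjusted p up to 0.113). The chains of basement membrane Col4a1, Col4a2 and Col4a5 fell by 0.60, 0.44 and 0.57, and the short-chain collagens Col8a1 and Col8a2 by 1.30 and 2.48. Col10a1, known from hypertrophic cartilage, fell by 1.12 and the cartilage chain Col2a1 by 0.52. Col5a3 alone rose (0.66 ± 0.09), and Col3a1 (0.02), Col6a1 (0.02) and Col12a1 (0.18) were among the 12 chains not called.

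Of 18 enzymes and chaperones that fold and crosslink collagen, 4 rose and 4 fell. All members of the lysyl hydroxylase family rose: Plod2 by 0.84 ± 0.14, Plod1 by 0.46 ± 0.08 and Plod3 by 0.44 ± 0.07. The prolyl hydroxylase subunits split, with P4ha2 higher (0.64 ± 0.14), P4ha3 lower (-0.81 ± 0.11) and P4ha1 not called (0.14). The lysyl oxidase Loxl4 fell by 0.55 and the procollagen proteinase Bmp1 by 0.36, while Lox (-0.24) was not called.

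Small leucine-rich proteoglycans, which bind collagen fibrils and set their width, fell in 8 of 10 members, and none rose. The list median was -0.76. Fmod, fibromodulin, read 12.62, 12.83 and 12.67 on the controls and 11.23, 11.17 and 11.51 with PTH, a difference of -1.40 ± 0.08 (adjusted p = 1.51e-11). All PTH arrays lay at least 1 log2 unit below the controls. Prelp fell by 1.40 (SE 0.12), asporin (Aspn) by 1.19 (SE 0.25), lumican (Lum) by 0.82 (SE 0.14), decorin (Dcn) by 0.69 (SE 0.13) and biglycan (Bgn) by 0.18 (SE 0.06). The call of Bgn was lost without PTH replicates 1 or 2 or control replicates 2 or 3 (adjusted p up to 0.166). Podn (0.07) and Chad (-0.02) were not called.

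Of 27 matricellular and fibre proteins, 12 fell and 4 rose. The CCN family of matricellular signalling proteins moved in opposite directions: Ccn5 rose by 1.53 ± 0.12, while Ccn2, known as connective tissue growth factor, fell by 1.64 (SE 0.23), Ccn1 by 0.95 (SE 0.18) and Ccn4 by 0.40 (SE 0.08). Thbs1, thrombospondin, an activator of latent TGF-beta, read 11.90, 12.16 and 11.96 on the controls and 10.66, 10.40 and 10.74 with PTH (-1.41 ± 0.10), and tenascin-C (Tnc) fell by 1.22 (SE 0.09). The groups of both were apart. The microfibril protein Mfap5 fell by 1.61 (SE 0.16). Fibronectin (Fn1, 0.05), elastin (Eln, -0.10) and Comp (0.05) were not called.

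Among 17 genes of lubricin, hyaluronan and chondroitin sulphate, 4 rose and 3 fell. Prg4, Vcan and Csgalnact1 made up the large increases, and the decreases, in the hyaluronan receptor Cd44 (-0.34), the chain-extending Chsy1 (-0.31) and the sulphotransferase Chst12 (-0.29), were small, and their count was 1 with the compared groups alone. The adjusted p of Chst12 was up to 0.129, without PTH replicate 2, and was also over 0.05 without PTH replicate 3, control replicate 1 or control replicate 3. None of the hyaluronan synthases Has1 (-0.05), Has2 (0.04) and Has3 (0.19) was called. Of 25 matrix proteases and their inhibitors, 5 rose and 7 fell. The higher count was 3 without PTH replicate 1, PTH replicate 3 or control replicate 3, and the lower count 4 without PTH replicate 2 or control replicate 1. Mmp13, the collagenase of osteoblasts and a known PTH target, read 13.11, 13.08 and 13.10 on the controls and 13.54, 13.52 and 13.73 with PTH, a separate but modest gain of 0.50 ± 0.10 (adjusted p = 0.00131). Mmp11 rose more, by 1.19 ± 0.13, and the stromelysin Mmp3 by 0.86 ± 0.18. The membrane protease Adam12 fell by 0.75 (SE 0.11), and the inhibitors Timp1 (0.12), Timp2 (-0.20) and Timp3 (0.06) were not called.

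The hormone's own receptor was lower. Pth1r read 11.05, 10.83 and 10.95 on the controls and 10.38, 9.99 and 10.02 with PTH, without overlap, a difference of -0.82 ± 0.09 (adjusted p = 9.57e-07). Of 49 genes of the receptor, cyclic AMP signalling and its feedback, 7 rose and 6 fell. The higher count was 4 without PTH replicate 1 and 3 without control replicate 2 or control replicate 3. The cyclic AMP phosphodiesterases Pde4b (0.69 ± 0.17) and Pde4d (0.59 ± 0.16), which degrade the second messenger, rose, as did Gem (1.02 ± 0.20), a small GTPase-like gene, and adrenomedullin, Adm (1.30 ± 0.19). The adjusted p of Pde4d was 0.058 without control replicate 2 and 0.052 without control replicate 3. The partners of calcitonin-family receptors Ramp1 and Ramp2 fell by 2.23 (SE 0.13) and 0.68 (SE 0.11). The cyclic AMP response factors Creb1 (0.10) and Crem (-0.10) and the feedback gene Rgs2 (0.28) were not called.

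Of 32 immediate early genes, which respond within an hour to most stimuli, 5 rose and 5 fell. The lower count was 3 without PTH replicate 3, control replicate 1 or control replicate 2, and the higher count 3 without control replicate 3. Junb rose by 0.80 ± 0.11 and Ier3 by 0.88 ± 0.11, while Nr4a1 fell by 0.87 (SE 0.13), Egr3 by 1.02 (SE 0.15) and Klf2 by 0.67 (SE 0.14). Fos (0.17), Nr4a2 (0.33), Egr1 (0.08) and Myc (0.02) were not called.

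Among 24 factors that act on osteoclasts, 4 rose and 1 fell. Tnfrsf11b, osteoprotegerin, read 9.82, 9.64 and 9.44 on the controls and 8.18, 7.65 and 8.13 with PTH, well apart, a difference of -1.65 ± 0.14 (adjusted p = 5.8e-09). Csf1, the growth factor of osteoclast precursors, rose from 10.83, 10.99 and 10.72 to 11.87, 11.94 and 11.84, by 1.04 ± 0.11 (adjusted p = 1.31e-07). Tnfsf11, RANKL, read 4.93, 4.86 and 4.78 on the controls and 5.83, 5.45 and 6.08 with PTH. Its arrays did not overlap, yet the levels were low and the call was weak. The difference was 0.93 ± 0.27 (adjusted p = 0.0257), and without 1 array the adjusted p ranged up to 0.124: it was 0.073 without PTH replicate 1, 0.124 without PTH replicate 3, and 0.055, 0.070 and 0.088 without control replicates 1, 2 and 3. Il6, a cytokine that PTH is known to induce, was not called at 24 h (0.60), and neither were Il11 (0.29), Ptgs2 (0.20), Ccl2 (-0.01) and Vdr (-0.25).

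Efnb2, ephrin-B2, a membrane ligand through which osteoblasts and osteoclasts signal to each other and the gene named in the study's title, read 7.50, 7.70 and 7.71 on the controls and 8.99, 8.88 and 8.96 with PTH. The PTH arrays agreed closely and lay more than 1 log2 unit above the controls. The difference was 1.31 ± 0.16 (adjusted p = 2.85e-06). Of 17 ephrins and Eph receptors tested, Efnb2 was the 1 that rose, and 2 fell, Efnb1 (-0.56 ± 0.09) and Efna5 (-0.42 ± 0.09). Of all genes tested 5.69% rose and 5.96% fell. Ephb4, a receptor for ephrin-B2, was not called (0.07).

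Of 21 genes of gp130 cytokine signalling, 7 rose and 1 fell, against 5.69% and 5.96% of all genes. The signal-transducing receptor Il6st (gp130) rose by 0.60 ± 0.08, and Osmr, the oncostatin M receptor that pairs with it, read 10.18, 10.10 and 9.73 on the controls and 11.21, 11.04 and 11.28 with PTH, a separate gain of 1.17 ± 0.10 (adjusted p = 3.03e-09). Downstream, Stat3 rose by 0.51 ± 0.07, Bcl3 by 1.69 ± 0.11 and the feedback inhibitors Socs3 and Socs2 by 2.18 ± 0.21 and 0.76 ± 0.10. The leukaemia inhibitory factor receptor Lifr fell by 0.43 (SE 0.11), but its adjusted p was 0.105 without PTH replicate 2 and 0.053 without control replicate 3. The ligands Il6, Il11 (0.29), Lif (0.13) and Osm (-0.04) were not called.

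Among 27 chemokines and acute phase genes, 4 rose and 1 fell. The neutrophil chemokines Cxcl5 and Cxcl1 rose by 1.17 ± 0.26 and 0.61 ± 0.13, and Ccl9 by 1.10 ± 0.23. Cxcl10, an interferon-induced chemokine, fell by 1.14 (SE 0.32), but control replicate 1, at 7.99 against 6.86 and 6.34 on the other controls, carried much of it, and the adjusted p went from 0.0184 to 0.182 without that array and to 0.068 without PTH replicate 1 or PTH replicate 2. Lcn2 (0.61) and Hp (0.61) were not called. Of 28 interferon-stimulated genes 1 fell, Mx1 (-1.12 ± 0.33), and there too control replicate 1 was high, at 7.02 against 5.55 and 5.62, with an adjusted p of 0.245 without it. It was also 0.053, 0.069 and 0.079 without PTH replicates 1, 2 and 3.

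Of 48 genes of Wnt signalling, 11 fell and 3 rose. Among the ligands, Wnt10a and Wnt10b, which favour osteoblasts over adipocytes, fell by 0.66 (SE 0.16) and 0.53 (SE 0.13), and Wnt4 was not called (-0.10). Of receptors, Fzd5 fell by 0.76 (SE 0.11) and the R-spondin receptor Lgr5 by 1.34, from 9.43, 9.57 and 9.72 to 8.33, 8.13 and 8.25 (SE 0.14). Beta-catenin itself, Ctnnb1, fell by 0.43 (SE 0.06). Extracellular inhibitors moved both ways: Wif1 (1.59 ± 0.16) and Sfrp1 (0.59 ± 0.11) rose, while Dkk2 (-0.98 ± 0.15), Sfrp2 (-0.38 ± 0.10) and Notum (-0.49 ± 0.14) fell. For Notum the adjusted p was 0.130 without PTH replicate 2 and 0.199 without control replicate 1. The target genes Axin2 (-0.06) and Lef1 (-0.08) were not called.

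Among 49 genes that act in BMP and TGF-beta signalling, 13 fell and 6 rose, the latter count being 3 without PTH replicate 1 and 3 with the compared groups alone. Among ligands, Tgfb3, Tgfb1, Bmp4 and Bmp8a fell by 0.66 (SE 0.09), 0.45 (SE 0.08), 0.38 (SE 0.08) and 0.86 (SE 0.12). Ltbp2, related to the proteins that hold TGF-beta in the matrix, fell by 1.29 (SE 0.13), and follistatin (Fst), an activin antagonist, read 9.63, 9.77 and 9.89 on the controls and 8.38, 8.13 and 8.34 with PTH (-1.48 ± 0.12). The follistatin arrays were well separated. The betaglycan receptor Tgfbr3 rose by 0.44 ± 0.08. Smad1 to Smad5 lay between -0.21 and 0.12 and none was called, and Bmp2 was not analysed here.

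Of 18 genes of the IGF axis, 5 fell and 2 rose, the latter count being 1 without PTH replicate 1, PTH replicate 3 or any 1 of the controls. Igf1, the growth factor stored in bone matrix, read 8.01, 8.01 and 8.44 on the controls and 7.14, 7.02 and 7.24 with PTH (-1.02 ± 0.30, adjusted p = 0.0248). Although the arrays did not overlap, the adjusted p was 0.063 without PTH replicate 1, 0.076 without PTH replicate 2 and 0.127 without control replicate 3. Igf2 fell by 0.38 (SE 0.07), and the serine protease Htra1, which cleaves matrix proteins and IGF-binding proteins, read 12.02 to 12.09 on the controls and 12.98 to 13.08 with PTH. Htra1 had the narrowest groups of this list, with a gain of 0.96 ± 0.06 (adjusted p = 1.51e-11). In Notch signalling 3 of 18 genes rose and none fell (1 without control replicate 1): Rbpj (0.67 ± 0.10), the DNA-binding partner of Notch, the ligand Jag1 (0.61 ± 0.13) and the receptor Notch3 (0.58 ± 0.10).

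Among 48 genes of FGF, EGF, PDGF and VEGF signalling, 7 fell and 5 rose. Fgfr2, an FGF receptor of the osteoblast lineage, read 10.03, 9.95 and 10.03 on the controls and 8.61, 8.51 and 8.72 with PTH, widely apart (-1.39 ± 0.08, adjusted p = 9.94e-12). Pdgfa, a growth factor ligand, fell by 1.66 (SE 0.09), while its receptor Pdgfra rose by 0.46 ± 0.09. The EGF receptor ligand Hbegf rose by 0.57 ± 0.13. Of 30 axon guidance genes, 4 rose and 5 fell, and secreted semaphorins stood on both sides: Sema3e rose by 1.05 ± 0.11, while Sema3b fell by 1.57 (SE 0.13), Sema3d was at -1.27 (SE 0.21) and Sema3c fell by 0.77 (SE 0.16). Sema3a was not called (0.18).

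Adhesion genes fell in 6 of 30 and rose in 2, against 5.96% and 5.69% of all genes. Itgbl1, an integrin-beta-like protein, and Itga10, a collagen-binding integrin chain, fell by 1.81 (SE 0.18) and 1.53 (SE 0.09). N-cadherin, Cdh2, which joins osteoblasts to each other, read 9.47, 9.26 and 9.30 on the controls and 8.41, 8.01 and 8.21 with PTH (-1.13 ± 0.10). The syndecans were divided, with Sdc3 lower (-0.75 ± 0.08) and Sdc1 (0.46 ± 0.07) and Sdc2 (0.29 ± 0.07) higher. Of 13 prostaglandin genes, 3 fell and 1 rose. Ptgis, prostacyclin synthase, fell most of them, from 11.34, 11.25 and 11.38 to 9.35, 9.21 and 8.94 (-2.16 ± 0.14, adjusted p = 6.3e-11), and phospholipase Pla2g4a rose by 0.70 ± 0.15.

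Genes of the actin cytoskeleton and of contractile cells fell in 11 of 25 members, and none rose. Tagln, transgelin, an actin-binding protein of contractile stromal cells, read 10.67, 10.73 and 10.70 on the controls and 9.09, 9.0 and 9.10 with PTH. These groups were among the tightest, and the difference was -1.63 ± 0.10 (adjusted p = 2.9e-11). Smooth muscle actin, Acta2, fell by 1.37 (SE 0.08) from levels of 12.96, 13.15 and 13.21. The myosin light chain Myl9 fell by 1.23 (SE 0.11), the enteric actin Actg2 by 1.09 (SE 0.12), vinculin (Vcl) by 0.70 (SE 0.07) and the tropomyosins Tpm1 and Tpm2 by 0.58 (SE 0.08) and 0.55 (SE 0.08). Myh9 (-0.12), Cald1 (-0.16) and Srf (-0.12), the transcription factor of this gene class, were not called.

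Mitosis genes were lower at 24 h in nearly the whole list. Of 34 tested, 28 fell and none rose, with a median of -0.68, and the 6 not called also had negative values, from -0.48 to -0.10. Birc5, survivin, of the chromosomal passenger complex, read 8.49, 8.59 and 8.49 on the controls and 7.52, 7.13 and 7.32 with PTH, apart by about 1 log2 unit (-1.20 ± 0.08, adjusted p = 2.18e-10). Cyclin B2 (Ccnb2) read 8.68, 8.86 and 8.73 on the controls and 7.86, 7.34 and 7.76 with PTH (-1.10 ± 0.10, adjusted p = 2.52e-08). The kinetochore protein Cenpf fell by 1.41 (SE 0.21), cyclin A2 (Ccna2) by 0.99 (SE 0.09), the proliferation antigen Mki67 by 0.98 (SE 0.21), the kinase Plk1 by 0.81 (SE 0.08) and Cdk1 by 0.53 (SE 0.07). PTH replicate 2 was the lowest PTH array for many of these genes, and without it 24 of the 34 were lower.

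Genes of S phase and DNA replication did not move as one: of 35 tested, 4 rose and 3 fell, with a median of 0.0009. The replication licensing factor Cdt1 read 9.60, 9.30 and 9.34 on the controls and 10.08, 10.04 and 9.92 with PTH, without overlap (0.59 ± 0.08, adjusted p = 1.97e-05). Mcm7, a subunit of the replicative helicase, rose by 0.30 ± 0.08 and Ung, which removes uracil from DNA, by 0.55 ± 0.12. For Mcm7 the adjusted p was 0.073 without PTH replicate 1 and 0.055 without control replicate 2. Ribonucleotide reductase Rrm2 fell by 0.53 (SE 0.08). The clamp Pcna (0.00) and the other 5 subunits of the helicase, Mcm2 to Mcm6, which lay between -0.12 and 0.01, were not called. The lower count of 3 was 1 without PTH replicate 2 or control replicate 3.

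**Figure D4:**
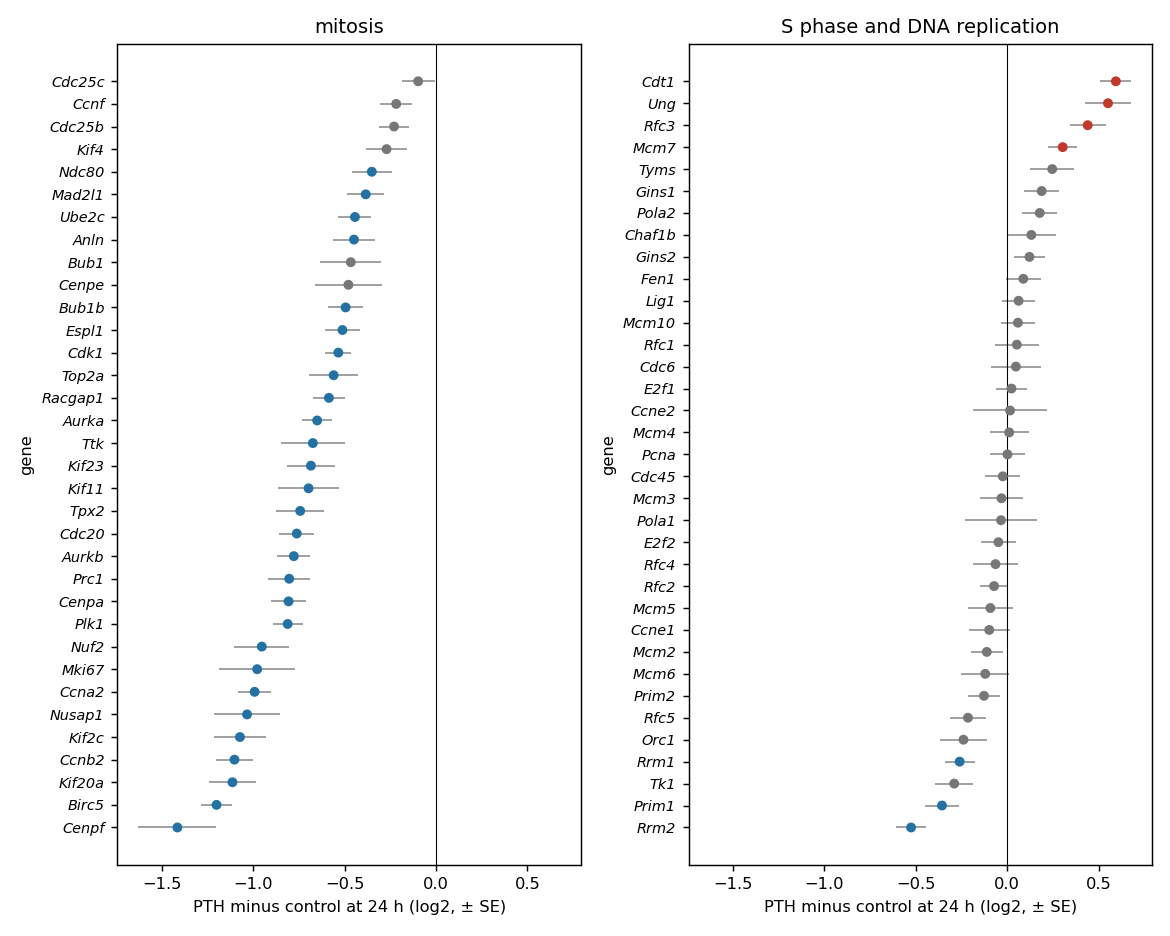
Difference between PTH and control at 24 h (log2, horizontal axis, with standard errors as bars) for each tested gene of the mitosis list and of the S phase and DNA replication list; red is called higher, blue called lower and grey not called. The 34 mitosis genes all lie to the left of 0, whereas the 35 S phase genes lie on both sides of it with a median of 0.0009.

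Ccnd1, cyclin D1, which couples growth signals to cell cycle entry, read 11.19, 11.32 and 11.20 on the controls and 9.88, 9.76 and 9.66 with PTH. Treated arrays were more than 1 log2 unit below the controls, at -1.47 ± 0.08 (adjusted p = 7.87e-12). Ccnd2 (-0.10), Ccnd3 (-0.23), the cyclin kinase Cdk6 (-0.06) and the inhibitors Cdkn1a (-0.12) and Cdkn1b (0.16) were not called. The growth arrest genes Gadd45b and Gadd45g fell by 0.93 (SE 0.09) and 0.94 (SE 0.12), and Gadd45a rose by 0.82 ± 0.18.

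Of 26 genes of glycolysis and hypoxia, 7 rose and none fell, with a median of 0.27. Car9, a carbonic anhydrase induced by hypoxia, read 7.51, 7.64 and 7.71 on the controls and 8.90, 9.12 and 9.06 with PTH, a separate gain of 1.41 ± 0.21 (adjusted p = 4.39e-05). Ndrg1, another hypoxia-responsive gene, rose by 1.07 ± 0.13, Hk2, hexokinase, by 0.62 ± 0.11 and Hif1a, the oxygen-sensing transcription factor, by 0.56 ± 0.11. Pgk1 and Bnip3 were also called higher, but less steadily. The call of Pgk1 was lost whichever of the 6 arrays was left out (adjusted p up to 0.1465). That of Bnip3 was lost without any 1 of them but control replicate 1 (adjusted p up to 0.154). Vegfa (0.25) and the glucose transporter Slc2a1 (0.53) were not called. Iron, oxidant and metal defence genes rose in 8 of 24 and fell in 3, the lower count being 1 without PTH replicate 2, PTH replicate 3, control replicate 1 or control replicate 3. Metallothionein Mt2 rose by 0.84 ± 0.18, extracellular superoxide dismutase Sod3 by 0.67 ± 0.11 and Gclc, which makes glutathione, by 0.63 ± 0.11, while the iron exporter Slc40a1 (ferroportin) fell by 0.99 (SE 0.10).

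In the unfolded protein response 6 of 27 genes rose and none fell, with a list median of 0.28. This count depended on the fit: it was 3 without PTH replicate 1, control replicate 2 or control replicate 3, 13 with the compared groups alone and 19 with the 24 h arrays alone. The sensor Atf6 rose by 0.54 ± 0.12 and the chaperone calnexin (Canx) by 0.28 ± 0.07, and the main chaperone Hspa5 (0.16) was not called. Of 31 genes of amino acid supply 4 rose (2 with the mean of all probe sets of a gene) and 1 fell, and the amino acid exchanger subunit Slc3a2 was among the higher (0.50 ± 0.11). Cholesterol synthesis genes rose in 2 of 20, with none lower. That count was 1 without PTH replicate 1, control replicate 2 or control replicate 3, and with array weights 6 rose and 2 fell. Fatty acid genes rose in 4 of 21 (2 without PTH replicate 1), with none lower. The respiratory chain had 5 of 54 lower, against 5.96% of all genes, and none higher, with a median of -0.12. That count ranged from 0 with the compared groups alone to 36 with array weights, and it was 1 without PTH replicate 3 and 2 without PTH replicate 2, control replicate 1 or control replicate 3. Heat shock genes held 2 lower members of 16, Cryab and Hspb1, and in Hspb1 (-0.55 ± 0.15) the adjusted p of 0.0123 became 0.128 without control replicate 1 and 0.053 without PTH replicate 2. The lower count was 4 with the 24 h arrays alone.

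Of 18 clock genes, 6 rose and 1 fell. The latter was Arntl, an activator of the clock (-0.36, adjusted p = 0.0208), whose adjusted p was 0.074 without PTH replicate 1, 0.096 without PTH replicate 3, 0.061 without control replicate 1 and 0.071 without control replicate 3. Nr1d2, a nuclear receptor that represses other clock genes, read 10.96, 10.80 and 10.68 on the controls and 11.74, 11.52 and 11.75 with PTH, a gain of 0.86 ± 0.17 (adjusted p = 0.000969). The output factor Dbp rose by 0.61 ± 0.13, and Bhlhe40, a light- and serum-responsive clock repressor, by 0.64 ± 0.10. Tef, Ciart and Nr1d1 were also called higher. The call of Tef was lost without PTH replicates 1 or 3 or control replicates 1 or 3 (adjusted p up to 0.204). For Ciart the adjusted p was 0.073 without PTH replicate 2 and 0.051 without control replicate 1. For Nr1d1 it was 0.056 without control replicate 3. Per1 (0.20), Per2 (0.10) and Cry1 (0.15) were not called.

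The effect of PTH at 24 h was set against that at 6 h, measured on other arrays with their own controls. At 6 h, 4605 genes (29.3%) differed from the controls, 1789 higher (11.4%) and 2816 lower (17.9%). The genes higher at both times numbered 308, which are 34.5% of the higher genes at 24 h and 17.2% of those at 6 h. The genes lower at both times numbered 462, or 49.4% of the lower genes at 24 h and 16.4% of those at 6 h. Fewer genes changed sign: 167 were higher at 24 h and lower at 6 h, and 82 were lower at 24 h and higher at 6 h. The 167 are 18.7% of the higher genes at 24 h, near the 17.9% of all genes tested that were lower at 6 h. The 82 are 8.76% of the lower genes at 24 h, under the 11.4% of all genes that were higher at 6 h. These counts are thus no result about genes that turn sign. Of the genes higher at 24 h, 419 were not called at 6 h. Across the 15711 genes, which are not independent replicates, the differences at both times correlated at 0.376.

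The change of the effect between the times was tested itself, as the PTH difference at 24 h minus that at 6 h. It was called in 3211 genes (20.4%), positive in 1983 (12.6%) and negative in 1228 (7.82%). After cyclic loess normalisation the split was 1830 positive and 1715 negative, so the balance of directions depended on the scaling. The largest losses were in genes that had gone up several-fold at 6 h. Vdr, the vitamin D receptor, was up by 4.29 at 6 h and at -0.25 at 24 h, a change of -4.54 (adjusted p = 2.7e-10). Il6 had a difference at 24 h that was lower by 5.48 than at 6 h, and Tnfsf11 one that was lower by 4.42 (5.35 at 6 h and 0.93 at 24 h). The cytokines Il33 and Il11 changed by -4.38 and -4.35, and the transcriptional cofactor Cited1 by -3.94.

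Other genes gained their difference after 6 h. Mreg differed by 0.16 at 6 h, where it was not called, and by 2.07 at 24 h (change 1.91, adjusted p = 8.8e-08). Postn differed by -0.17 at 6 h and -2.70 at 24 h (change -2.53, adjusted p = 1.9e-07), and Col1a1 by -0.10 and -0.75 (change -0.65, adjusted p = 2.8e-05). Mmp11 and Car9 had differences of 0.04 at 6 h, not called, beside 1.19 and 1.41 at 24 h. The mitosis list was of this kind: at 6 h 4 of its 34 genes were lower and 2 higher, and the change of effect was negative in 22 genes and positive in 1. In the S phase list, by contrast, 19 of 35 genes were lower at 6 h, against 3 at 24 h. Of all genes tested, 17.9% were lower at 6 h and 5.96% at 24 h. Collagen chains had a negative change in 13 of 26 genes and a positive one in 1, and actin genes in 14 and 1 of 25. Over all genes tested the change was negative in 7.82% and positive in 12.6%. Another set was lower at both times, and most so at 6 h: Smpd3 (-5.16 at 6 h and -2.89 at 24 h), Dock10 (-4.52 and -2.74), Car8 (-4.15 and -2.30) and Slc40a1 (-3.33 and -0.99).

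Other lists had more higher members at 6 h than at 24 h, as did all genes tested (11.4% at 6 h and 5.69% at 24 h). In the unfolded protein response 22 of 27 genes were higher at 6 h and 6 at 24 h (19 with the 24 h arrays alone), and the list median went from 0.81 to 0.28. In cholesterol synthesis 15 of 20 were higher at 6 h and 2 at 24 h, with medians of 0.68 and 0.08, and the change of effect was negative in 11 genes and positive in 1. By contrast, Prg4 (change -0.56), Csgalnact1 (-0.31), Socs3 (-0.34), Efnb2 (-0.22) and Sp7 (-0.03) had changes that were not called. Of the genes whose sign turned, Nr1d2 was lower at 6 h (-0.96) and higher at 24 h (0.86), and so were Etfbkmt (-1.26 and 0.79), a mitochondrial methyltransferase, Eda2r (-0.76 and 1.07), the ectodysplasin receptor, Rasl11a (-1.08 and 0.61) and Gbp6 (-1.52 and 0.75), whose adjusted p at 24 h was 0.0998 without PTH replicate 1 and 0.062 without control replicate 1. In the opposite sense S1pr1, a sphingosine phosphate receptor, was higher at 6 h (1.74) and lower at 24 h (-0.49), as were Slc43a2 (1.62 and -0.49), an amino acid transporter, Prr5l (1.35 and -0.70), Mgp (1.39 and -0.40) and the sialyltransferase St3gal1 (1.58 and -0.50). St3gal1 had an adjusted p at 24 h of 0.130 without control replicate 1, 0.080 without PTH replicate 2 and 0.058 without PTH replicate 3.

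**Figure D5:**
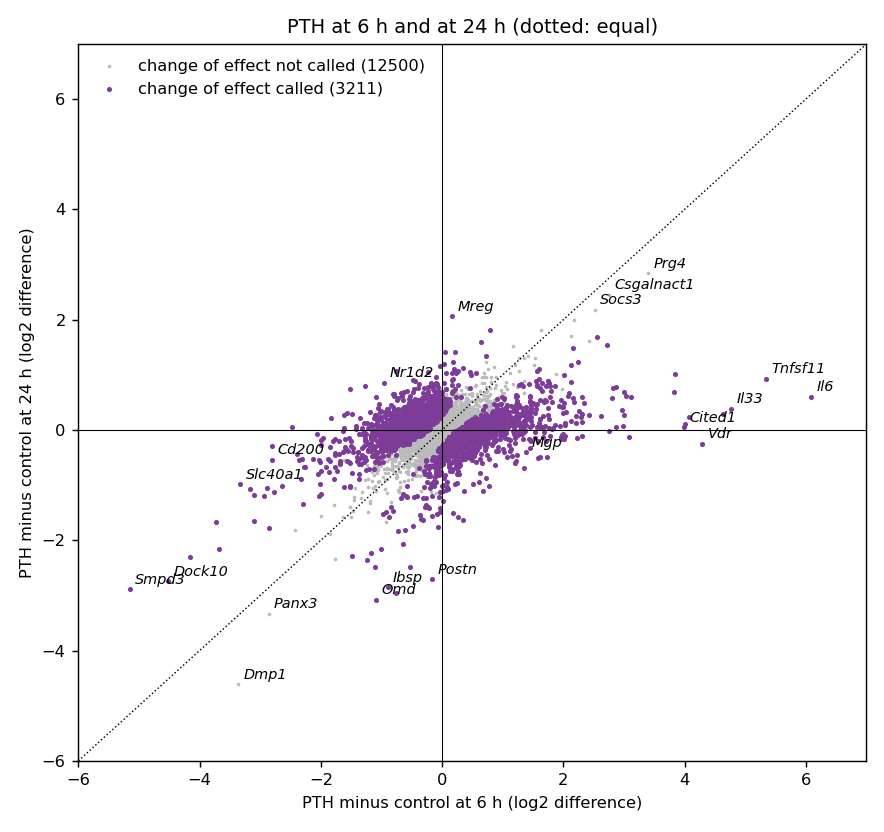
PTH minus control at 6 h (log2, horizontal axis) against PTH minus control at 24 h (log2, vertical axis), 1 point per gene tested, with the 3211 genes whose effect changed between the times in purple and the dotted line marking equal effects. Il6, Tnfsf11, Il33 and Vdr lie far to the right and near 0 or 1 on the vertical axis, while Prg4, Csgalnact1 and Socs3 lie near the line and Postn and Omd below it.

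PTHrP(1-141) acts on the same receptor as PTH. Its arrays at 24 h were compared with the PTH arrays directly, but ligand, peptide length and dose (20 nM against 10 nM) differ together and cannot be told apart. The arrays differed in 182 genes (1.16%), 132 of them higher with PTHrP (0.84%) and 50 lower (0.318%). This count was 77 without PTHrP replicate 3, 96 without PTH replicate 3 and 101 without PTH replicate 2. Several genes that PTH lowered stood higher with PTHrP. Panx3 differed from the controls by -3.33 with PTH and -1.66 with PTHrP (PTHrP minus PTH 1.67, adjusted p = 1.7e-06). Ibsp differed by -2.85 and -1.57 (1.29, adjusted p = 7.9e-05), Ptgis by -2.16 and -0.99 (1.17, adjusted p = 3.2e-05) and Omd by -3.08 and -1.92 (1.16, adjusted p = 0.0002). Both sets of differences share the control arrays. PTHrP minus PTH also shares the PTH arrays with PTH minus control, with opposite sign. Noise in the PTH arrays can thus by itself give opposite values in genes that PTH lowered or raised. Its part in the results was not tested.

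Pth1r itself was at -0.82 with PTH and at -0.06 with PTHrP, a difference of 0.76 between the peptides (adjusted p = 3.7e-05), and Id3 was at -1.83 and -0.70 (1.13, adjusted p = 1.6e-06). In the list of small leucine-rich proteoglycans 4 of 10 members were higher with PTHrP than with PTH, and none was lower. On the side of genes that PTH raised, Prg4 gained 2.84 with PTH and 1.51 with PTHrP (-1.33, adjusted p = 8.5e-05), Ecm1 1.81 and 1.15 (-0.66, adjusted p = 3.2e-05), and Tnfrsf9, a receptor of the TNF family, 1.24 and 0.46 (-0.78, adjusted p = 0.00027). The largest difference was in Saa3, an acute phase protein, which PTH left at -0.20, not called, and which stood 2.44 higher with PTHrP than with PTH (adjusted p = 3.2e-05), and Ccl2 was likewise 1.2 higher. For Efnb2 the differences from control were 1.31 and 0.91, and the peptides did not differ by this test (-0.40, adjusted p = 0.37), which does not show that they act alike. Mitosis genes had medians of -0.68 with PTH and -0.85 with PTHrP.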

How the data were processed

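Gene expression was measured on 27 one-colour Affymetrix arrays in 9 groups of 3, and 2 groups make up the comparison. The deposited values are linear intensities made by the authors with RMA, per the submitters' processing notes, and the software version is not given in the sources used here. This study dates from 2008 and its data were renormalised in 2013, per the series' design text. Values were taken to log2. For each gene the probe set that was brightest on average over all arrays stood for it, and genes at a log2 level of at least 5 on 3 or more arrays were kept. A model of 9 group means was fitted to all 27 arrays with limma 3.58.1 in R 4.3.3, with Benjamini-Hochberg adjustment, and was tested on simulated data. It gave 18 residual degrees of freedom. Of the other probe sets of called genes, 842 of 956 for higher genes and 736 of 822 for lower genes had the same sign. Genes were named as the 15 largest called changes in each direction, genes set from knowledge of PTH action, the largest changes of effect and of peptide, those that turned sign, and listed members. The members and lists were chosen with earlier results of these data known. No column of the deposited table was left out (0 columns). Alternatives covered normalisation, filter, probe choice, test settings and each array in turn.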

Additional observations from a re-analysis of the deposited data

Results flagged for a closer look

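Of 65 genes examined, 48 had an effect of PTH at 24 h that differed from that at 6 h by the test of the difference itself (limma, adjusted p under 0.05). Part of these genes were chosen for this value or for a turn of sign, so the count is a description. Over all genes tested it was 3211 of 15711 (20.4%). Values are the log2 difference between PTH and control at 24 h minus that at 6 h. The largest negative values were those of Il6 (-5.48), Vdr (-4.54), Tnfsf11 (-4.42), Il33 (-4.38), Il11 (-4.35) and Cited1 (-3.94). Vdr, Il33, Il11 and Cited1 were named for the size of this value, and Il6 and Tnfsf11 also from knowledge of PTH action. Others set from such knowledge were Rgs2 (-2.73), Wnt4 (-2.12), Fos (-1.95), Igf1 (-1.80), Nr4a2 (-1.14), Alpl (-0.80), Ccnd1 (-0.67) and Col1a1 (-0.65). Genes with the largest changes at 24 h whose value was negative were Postn (-2.53), Car3 (-2.19), Omd (-1.996), Ibsp (-1.96), Mest (-1.95), Col8a2 (-1.37), Vcan (-1.19), Mamdc2 (-1.13), Ramp1 (-1.06), Bcl3 (-0.87), Cryab (-0.79) and Cebpd (-0.66). Genes that had been higher at 6 h and were lower at 24 h were S1pr1 (-2.22), Slc43a2 (-2.11), St3gal1 (-2.08), Prr5l (-2.06) and Mgp (-1.79).

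Positive values belonged to Ndnf (2.53), Dtx4 (2.53), Slc40a1 (2.34), Cd200 (2.27), Smpd3 (2.27), Mreg (1.91), Car8 (1.86), Dock10 (1.78), Tnfrsf11b (1.45), Chchd10 (1.22), Sulf1 (1.01) and Wif1 (0.95). They also belonged to genes lower at 6 h and higher at 24 h, namely Gbp6 (2.27), Etfbkmt (2.06), Eda2r (1.84), Nr1d2 (1.82) and Rasl11a (1.69). The value of Cebpd lost its call in several settings, with an adjusted p of up to 0.157 without control replicate 1 at 24 h. That of Nr4a2 was at an adjusted p of 0.051 without PTH replicate 2 at 24 h and 0.050 without PTH replicate 2 at 6 h.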

How the results depend on the processing

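For PTH against control at 24 h the count of 1830 fell to 134 (39 higher, 95 lower) in a test against a 1.5-fold change and rose to 4388 (2006 higher, 2382 lower) with array weights. With the groups compared alone, so that only their 6 arrays set the spread, it was 1317 (619 higher, 698 lower). Leaving out 1 array of the 6 gave 1275 to 1575 called genes, 520 to 836 higher, 689 to 986 lower and 154 to 163 over 2-fold. For the change of effect, the counts were 294 in the 1.5-fold test, 5128 with array weights and 2734 to 3145 with 1 array left out. For PTHrP against PTH they were 2 and 1273, then 293 with cyclic loess, 83 with the groups compared alone, 117 with the replicate block and 77 to 193 with 1 array left out. Of 43 named genes called for PTHrP against PTH, 41 lost the call in the 1.5-fold test. In at least 1 other setting 18 lost it, and with 1 array left out 15 did. For the change of effect, 127 named genes were called, and these losses were 73, 14 and 15. Among 194 named genes called for PTH at 24 h, the call was lost in 121 by the 1.5-fold test, in 23 in at least 1 other setting and in 31 with 1 array left out. Of the called, Atp5g1 changed sign, at 0.0466 with the mean of its probe sets. Uncalled genes near 0 also changed sign: Ccl2 with array weights (0.0042) and, with 1 array left out, between -0.1056 and 0.1096, Dtx4 between -0.0135 and 0.0933, Wnt4 between -0.1817 and 0.0091, and Cited1 between -0.0112 and 0.1147. The causes were not tested. The labels do not say whether replicate numbers pair PTH and control arrays. Deviations from the group means correlated at 0.26, 0.29 and -0.04 between same-numbered arrays, which does not settle it. The replicate block gave 1600 calls (750 higher, 850 lower). The precision is limited by 3 arrays a group and, for dim genes, by background.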
